A study of Mus musculus with 12 samples.

Results

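The genes of double-strand break signalling and repair were followed in CT26 tumours, which are tumours of a mouse colon carcinoma cell line. A list of 41 gene symbols defined the module, and a gene was a member when the deposited table held its symbol, with no expression value used in the choice. The table held 40 of the 41 symbols among its 55415 entries. The symbol Claspn had no entry. The claspin gene is listed as Clspn, and its values are given beside the members without being counted.

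The tumours came from 4 groups of mice with 3 RNA-seq libraries each. They were mice given Complex 1 together with radiation (combination), mice given radiation alone, mice given Complex 1 alone, and untreated control mice. All carried CT26 tumours, and the labels describe the cells as WT. Complex 1 is the submitters' code name for a compound. The labels give no doses, schedules or sampling times, and do not tell whether the sampled tumour lay inside the radiation field. Nor do they state that each library is a mouse of its own, so that p-values measure the spread between these libraries, which may be technical. Below, a tumour that is counted or compared stands for 1 library.

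A DNA double-strand break is sensed by the MRN complex and by Ku. The kinases ATM, ATR and DNA-PK then phosphorylate the histone variant H2AX and many other proteins around the break, and the checkpoint kinases they switch on hold the cell cycle. The ends are joined directly (classical end joining), are resected and copied from the sister chromatid (homologous recombination, in S and G2 phase), or are joined through short repeats (alternative end joining). Ionising radiation is a classical source of such breaks, and much of this response works through protein modification rather than through transcription.

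Levels are the authors' deposited FPKM, which divide the counts by the exonic length in kilobases and by the mega counts of the library. Total counts were 15.6 to 19.1 M per library, and a member had 39 to 3411 counts in a library. All 40 members passed the filter of at least 1 FPKM in at least 3 of the 12 libraries. Their mean levels over the 12 libraries were 1.07 FPKM (Rnf8) to 54.1 FPKM (H2ax), with a median of 4.14 FPKM, beside 7.19 FPKM over all 13668 tested genes. Some libraries stood apart. Control replicate 2 had 0.02 FPKM of Xist, which coats the silenced X chromosome, against 9.20 to 14.2 FPKM in the other 11 libraries. The summed level of 9 T cell markers was 12.4 FPKM in radiation replicate 2, against 47.6 and 42.3 FPKM in the other 2 radiation libraries, and 47.5 FPKM in Complex 1 replicate 3, against 18.2 and 22.3 FPKM in the other 2 of that group. Of 7 epithelial and colon markers, Krt18 alone passed the filter. It had 2.9 to 4.1 FPKM in combination, 3.45 to 4.77 FPKM in radiation, 2.81 to 6.41 FPKM in Complex 1 and 4.83 to 7.72 FPKM in control tumours, so that every combination and radiation library lay below every control library. Krt18 fell in combination against control at a log2 change of -0.87 ± 0.27 (SE, adjusted p = 0.0383) and was at -0.55 ± 0.19 (SE, adjusted p = 0.0516) over both levels of Complex 1 by edgeR. Vil1 and Cdx2 stayed at or below 0.15 FPKM in every library.

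Most members that moved were lower in tumours of mice given radiation, with or without Complex 1. Over both levels of Complex 1, that is the mean of radiation against control and combination against Complex 1, 19 of 40 members fell and 1 rose (quasi-likelihood test of edgeR, adjusted over all tested genes after Benjamini and Hochberg, adjusted p under 0.05). Of all tested genes 26.5% were called in this comparison, 13.2% lower and 13.3% higher. The log2 changes of the members had a median of -0.19, with -0.00515 over all tested genes. The largest falls belonged to H2ax, the histone variant phosphorylated at breaks, to Chek2, a checkpoint kinase, to Bard1, a ubiquitin ligase subunit of homologous recombination, and to Brip1, a DNA helicase, and the 1 member that rose was Dclre1c, the end-joining nuclease Artemis. In RNA of whole tumours, fewer cells of a type and less RNA per cell cannot be told apart. Genes whose levels do not overlap between tumours with and without radiation are pointed out below. The share of all tested genes that separate in this way was not computed, so that a separation cannot be read as particular to them.

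In the pairwise comparisons, 14 members were lower and 1 higher in combination against control tumours, with 21.9% of all tested genes called, 10% lower and 11.9% higher. In radiation against control tumours 6 members were lower and 1 higher, with 13.2% of all tested genes called, 5.86% lower and 7.39% higher. In combination against Complex 1 tumours 13 were lower and 0 higher, with 9.98% called, 5.25% lower and 4.73% higher. The members' median log2 change was -0.14, -0.15 and -0.25 in these 3 comparisons in this order, and -0.00678, -0.00555 and -0.00391 over all tested genes. For Complex 1 against control tumours edgeR called 0 members, with 2 at an unadjusted p under 0.05 and 1 called by DESeq2. Of all tested genes 0.812% were called there, and 12.5% had an unadjusted p under 0.05. Combination against radiation tumours gave 0 calls by edgeR, 2 at an unadjusted p under 0.05 and 0 by DESeq2. Of all tested genes 0.651% were called there, and 10.3% had an unadjusted p under 0.05. The counts moved with single libraries. They were 3 without control replicate 1, 3 without radiation replicate 1 and 4 without radiation replicate 3 in radiation against control, and 9 without combination replicate 3 in combination against control. In combination against Complex 1 they were 6 without Complex 1 replicate 1, 6 without Complex 1 replicate 2, 6 without combination replicate 1 and 4 without combination replicate 3. Over both levels of Complex 1 they were 19 to 21 with any 1 library left out. Without the 3 libraries that stood apart the counts were 20 over both levels, 12, 6 and 14 in the 3 pairwise comparisons in the order above, and 0 in the other 2. The share of all tested genes called in each of these reduced fits is not given here, so that a move of the counts cannot be read as particular to the members.

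**Figure D1:**
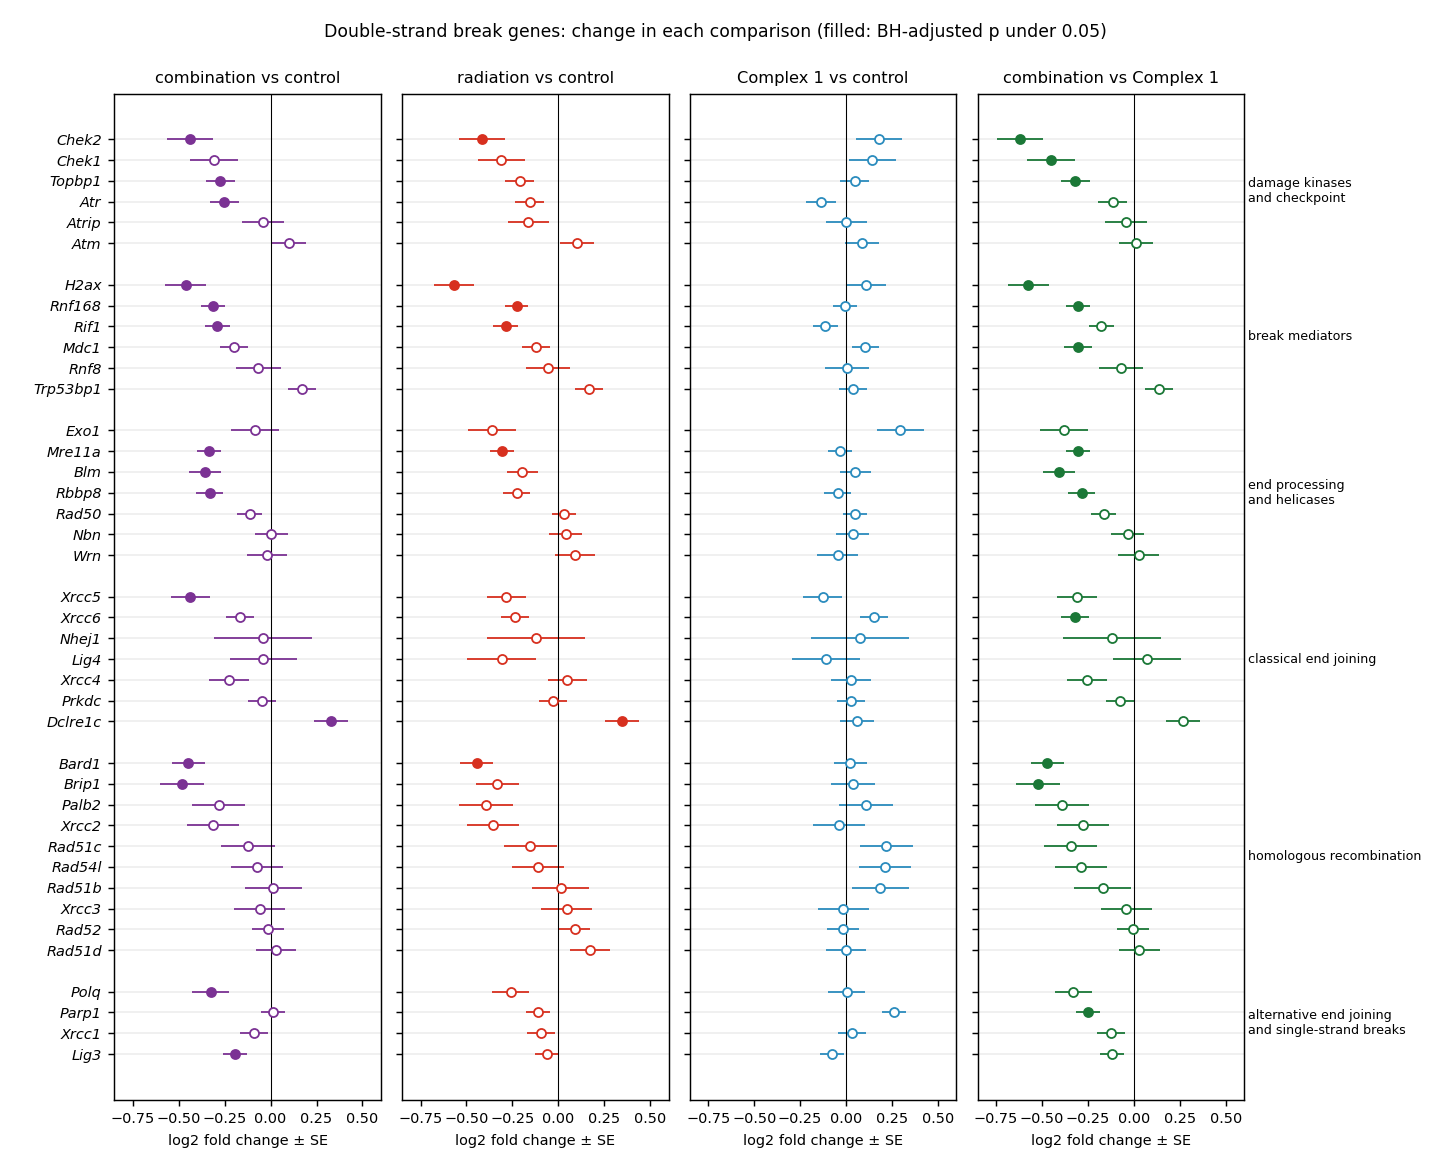
Log2 fold change ± SE of the 40 members in 4 comparisons, grouped by role, with filled points for members that passed the test. Filled points lie left of 0 in every comparison with radiation except for Dclre1c, and the Complex 1 against control panel has no filled point.

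Genes of proliferating cells moved with the members. Of 20 such genes, among them Mki67, Top2a and the MCM helicase subunits, 20 fell over both levels of Complex 1, with a median log2 change of -0.34, and 0 were called in Complex 1 against control tumours (edgeR, with 2 at an unadjusted p under 0.05). Among all tested genes 13.2% fell over both levels. In Complex 1 against control 0.812% of them were called, and 12.5% had an unadjusted p under 0.05. The summed level of the 20 proliferation genes was 598 to 662 FPKM in combination tumours, 607 to 709 FPKM in radiation tumours, 794 to 848 FPKM in Complex 1 tumours and 737 to 820 FPKM in control tumours, so that the 6 tumours with radiation lay below the 6 without it. The summed level of 10 macrophage markers was 2104 to 2236 FPKM in combination tumours, 2091 to 2270 FPKM in radiation tumours, 1401 to 1548 FPKM in Complex 1 tumours and 996 to 1186 FPKM in control tumours. No macrophage or proliferation marker was at 0 FPKM in any library. Summed levels of 5 neutrophil markers were 245 to 408 FPKM in combination, 8.9 to 33.6 FPKM in radiation, 87.4 to 195 FPKM in Complex 1 and 10.35 to 18.2 FPKM in control tumours, with Retnlg at 0 in 1 radiation and 1 control library. The 9 T cell markers summed to 41.3 to 50.7 FPKM in combination, 12.4 to 47.6 FPKM in radiation, 18.2 to 47.5 FPKM in Complex 1 and 20.02 to 26.9 FPKM in control tumours, and 2 of them rose over both levels of Complex 1 and 3 in combination against control by edgeR. The sums of 7 fibroblast markers were 294 to 303 FPKM in combination, 241 to 274 FPKM in radiation, 224 to 283 FPKM in Complex 1 and 206 to 233 FPKM in control tumours, with 2 higher over both levels and 1 in combination against control by edgeR. No T cell or fibroblast marker was at 0 in any library. Of 5 endothelial markers, the 4 that passed the filter summed to 12.6 to 15.3 FPKM in combination, 13.5 to 15.8 FPKM in radiation, 10.99 to 23.8 FPKM in Complex 1 and 10.4 to 19.6 FPKM in control tumours. Of these 4, 0 were called over both levels by edgeR and 1 had an unadjusted p under 0.05. Of 9 genes of the p53 response, such as Cdkn1a and Mdm2, 9 rose over both levels of Complex 1, with a median log2 change of 0.83. Among all tested genes 13.3% rose over both levels and 11.9% rose in combination against control. The share of all tested genes at an unadjusted p under 0.05 over both levels is not given here. The part of these gene lists in the members' changes was not tested.

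**Figure D2:**
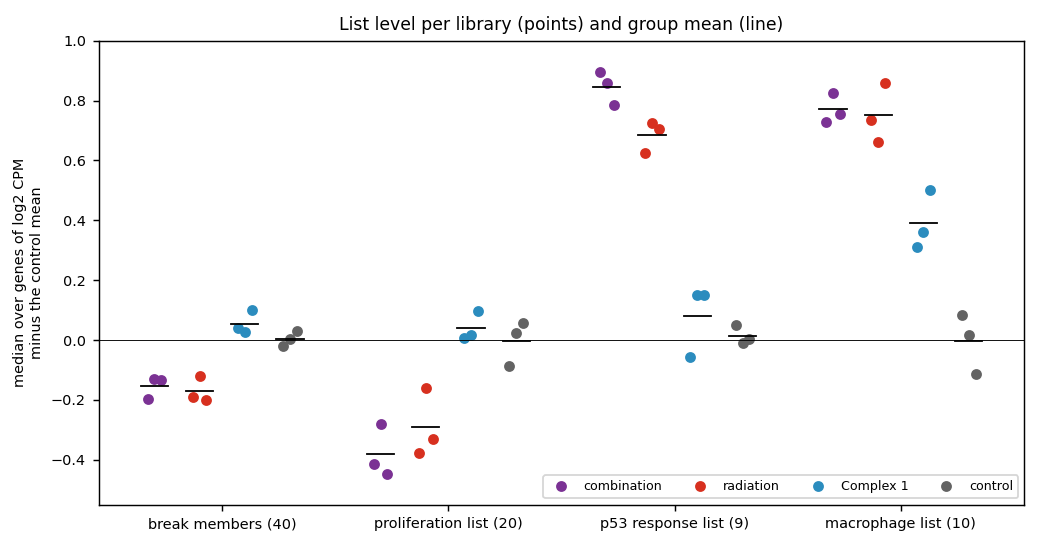
Level of 4 gene lists in each library, as the median over the list's genes of log2 CPM (counts per mega count, TMM-scaled) minus the control mean, with the group mean as a line. Break members and proliferation genes are lower in the combination and radiation libraries, p53 response and macrophage genes are higher, and within those 2 groups the break members move least of the 4.

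The promoters of members were read for 3 motifs. RefSeq windows on build GRCm38.p6, of 250 bases before and 50 after the start of a gene, were at hand for 30 of the 40 members. H2ax, the member with the largest fall, had no window. Among the members with a window, those with the largest or most regular changes have theirs printed, 5′ to 3′ on the gene's strand, with motif matches in capitals. They are Bard1 at chr1:71102923-71103222 (minus strand), Chek2 at chr5:110839733-110840032 (plus strand), Brip1 at chr11:86201144-86201443 (minus strand), Rnf168 at chr16:32277211-32277510 (plus strand), Mre11a at chr9:14784404-14784703 (plus strand) and, as the member that rose, Dclre1c at chr2:3423881-3424180 (plus strand).
Bard1: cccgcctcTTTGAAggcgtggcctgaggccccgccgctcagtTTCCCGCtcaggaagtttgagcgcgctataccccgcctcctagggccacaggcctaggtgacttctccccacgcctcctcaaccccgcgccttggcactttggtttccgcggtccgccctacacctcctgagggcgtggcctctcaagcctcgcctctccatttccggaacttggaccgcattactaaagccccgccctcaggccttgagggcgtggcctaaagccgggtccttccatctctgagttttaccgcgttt
Chek2: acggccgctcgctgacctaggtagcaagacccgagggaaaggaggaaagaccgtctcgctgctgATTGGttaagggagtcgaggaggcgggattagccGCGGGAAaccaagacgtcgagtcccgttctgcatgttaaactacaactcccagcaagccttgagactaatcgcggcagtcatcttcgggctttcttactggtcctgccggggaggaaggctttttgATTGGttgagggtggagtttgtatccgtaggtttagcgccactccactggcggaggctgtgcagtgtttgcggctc
Brip1: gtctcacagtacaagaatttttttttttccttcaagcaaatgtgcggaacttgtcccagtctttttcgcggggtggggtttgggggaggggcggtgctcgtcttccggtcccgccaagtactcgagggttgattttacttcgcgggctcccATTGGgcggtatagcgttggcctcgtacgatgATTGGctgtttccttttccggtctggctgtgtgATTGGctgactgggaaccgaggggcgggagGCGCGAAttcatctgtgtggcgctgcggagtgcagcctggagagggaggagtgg
Rnf168: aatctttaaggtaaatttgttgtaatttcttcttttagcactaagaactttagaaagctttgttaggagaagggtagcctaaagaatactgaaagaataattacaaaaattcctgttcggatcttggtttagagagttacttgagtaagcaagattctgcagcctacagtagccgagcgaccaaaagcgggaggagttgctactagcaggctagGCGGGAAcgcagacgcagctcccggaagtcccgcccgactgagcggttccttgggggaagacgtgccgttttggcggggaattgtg
Mre11a: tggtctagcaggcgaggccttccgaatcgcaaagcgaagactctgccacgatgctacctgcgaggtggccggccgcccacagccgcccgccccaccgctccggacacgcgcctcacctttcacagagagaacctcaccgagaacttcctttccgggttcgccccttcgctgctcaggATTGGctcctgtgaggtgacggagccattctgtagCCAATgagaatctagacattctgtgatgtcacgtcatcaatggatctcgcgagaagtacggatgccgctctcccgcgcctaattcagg
Dclre1c: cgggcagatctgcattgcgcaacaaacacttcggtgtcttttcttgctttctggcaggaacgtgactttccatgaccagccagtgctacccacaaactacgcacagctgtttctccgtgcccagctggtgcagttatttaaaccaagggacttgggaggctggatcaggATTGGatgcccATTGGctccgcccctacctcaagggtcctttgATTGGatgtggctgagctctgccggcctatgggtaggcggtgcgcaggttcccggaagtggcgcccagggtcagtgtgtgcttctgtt

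The motifs were searched on both strands. The E2F core, the binding site of the E2F cell cycle factors, was searched in 4 spellings, of which the first is TTCCCGC, the next is TTGGCGC, the third is TTCGCGC and the last is TTGCCGC. The cell cycle homology region was searched as TTTGAA and also as TTCGAA, and the CCAAT box by the letters of its name. No spelling of one motif lies inside a spelling of another. In the printed windows, Bard1, Chek2, Brip1 and Rnf168 each hold 1 E2F core, which begins at -208, -152, -4 and -36 in this order, counted from the start site, and Mre11a and Dclre1c hold none. CCAAT boxes number 2 in Chek2, 3 in Brip1, 2 in Mre11a and 3 in Dclre1c, with none in Bard1 and Rnf168, and Bard1 alone of the 6 holds a cell cycle homology region. An E2F core was found in 16 of the 30 members (53.3%), in 19.5% of the 9325 tested genes with a window and in 10.9% of all 27025 genes of the promoter table. Among the proliferation genes it was in 9 of the 16 with a window (56.2%), a share near that of the members. Among members that fell over both levels of Complex 1 it was in 10 of 14 (71.4%), against 6 of 15 of those not called. Among all tested genes it was in 30.1% of those that fell and 13.8% of those that rose. The cell cycle homology region was in 16.7% of the members and 16.5% of all tested genes, and the CCAAT box in 53.3% and 43.3%. Of the 16 proliferation genes, 50% held the former and 93.8% the latter. These matches are a description of the letters in the windows.

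Of the 6 damage kinases and checkpoint genes with an entry, 3 fell over both levels of Complex 1, beside 13.2% of all tested genes. The role groups are small, and their counts are not results about a branch of the pathway. Chek2 (chromosome 5, 110987845 to 111022011, plus strand, mm39) encodes the checkpoint kinase downstream of ATM. It stood at 4.54, 5.4 and 4.15 FPKM in the combination tumours, 3.94, 5.59 and 4.58 FPKM in the radiation tumours, 6.96, 7.07 and 7.31 FPKM in the Complex 1 tumours and 5.96, 6.22 and 6.28 FPKM in the control tumours. Every tumour with radiation lay below every tumour without it, and radiation replicate 2 and combination replicate 2 were the highest of their groups. Its log2 change was -0.52 ± 0.09 (SE, adjusted p = 0.00117) over both levels of Complex 1, -0.62 ± 0.13 (SE, adjusted p = 0.00953) for combination against Complex 1 and -0.44 ± 0.13 (SE, adjusted p = 0.0252) for combination against control, all by edgeR. For radiation against control it was -0.42 ± 0.13 (SE, adjusted p = 0.0461) by edgeR, and this call was lost in 5 of 6 fits that left out 1 of the libraries compared, with adjusted p up to 0.185.

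Chek1 encodes the checkpoint kinase downstream of ATR. It had 2.9, 3.61 and 3.17 FPKM in the combination tumours, 2.74, 3.55 and 3.24 FPKM in the radiation tumours, 3.91, 4.63 and 4.52 FPKM in the Complex 1 tumours and 3.32, 4.08 and 4.2 FPKM in the control tumours. The log2 change of Chek1 was -0.38 ± 0.09 (SE, adjusted p = 0.00806) over both levels of Complex 1 and -0.45 ± 0.13 (SE, adjusted p = 0.0422) for combination against Complex 1 by edgeR, and the lowest control library lay within the range of the tumours with radiation. Topbp1, which activates ATR, had 12.9, 14.1 and 12.4 FPKM in the combination tumours, 13.2, 15.1 and 12.4 FPKM in the radiation tumours, 15.4, 16.5 and 16.7 FPKM in the Complex 1 tumours and 14.5, 15.9 and 15.8 FPKM in the control tumours. For Topbp1 the log2 change was -0.26 ± 0.06 (SE, adjusted p = 0.00392) over both levels of Complex 1, -0.27 ± 0.08 (SE, adjusted p = 0.0251) for combination against control and -0.32 ± 0.08 (SE, adjusted p = 0.0227) for combination against Complex 1 by edgeR. Only radiation replicate 2 reached into the range of the tumours without radiation.

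The apical kinases moved less. Atm, the kinase activated at breaks, had 6.31, 6.78 and 6.28 FPKM in the combination tumours, 6.86, 6.45 and 5.79 FPKM in the radiation tumours, 6.19, 5.88 and 6.85 FPKM in the Complex 1 tumours and 5.45, 5.45 and 6.59 FPKM in the control tumours. The groups overlapped, and the log2 change over both levels of Complex 1 was 0.06 ± 0.06 (SE, adjusted p = 0.554) by edgeR. Atr, the kinase that acts on single-stranded DNA with its partner Atrip, had 2.12, 2.01 and 1.78 FPKM in the combination tumours, 1.99, 2.08 and 2.15 FPKM in the radiation tumours, 2.18, 2.09 and 2.04 FPKM in the Complex 1 tumours and 2.42, 2.07 and 2.32 FPKM in the control tumours. It passed by edgeR in combination against control, at -0.25 ± 0.08 (SE, adjusted p = 0.0386), although the groups overlapped, and was at -0.14 ± 0.06 (SE, adjusted p = 0.0942) over both levels of Complex 1. The call was lost in 4 of 6 fits that left out 1 library, with library totals alone and with the 2 groups alone, with adjusted p up to 0.155. Atrip ranged over 1.94 to 2.53 FPKM in the 12 libraries and passed in no comparison. Clspn, the adaptor through which ATR reaches CHEK1, had 5.66, 6.02 and 5.17 FPKM in the combination tumours, 5.96, 6.29 and 5.34 FPKM in the radiation tumours, 7.46, 7.22 and 8.08 FPKM in the Complex 1 tumours and 7.08, 7.0 and 7.55 FPKM in the control tumours. All its tumours with radiation lay below all those without, and its log2 change over both levels was -0.39 ± 0.06 (SE, adjusted p = 4.37e-04) by edgeR.

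**Figure D3:**
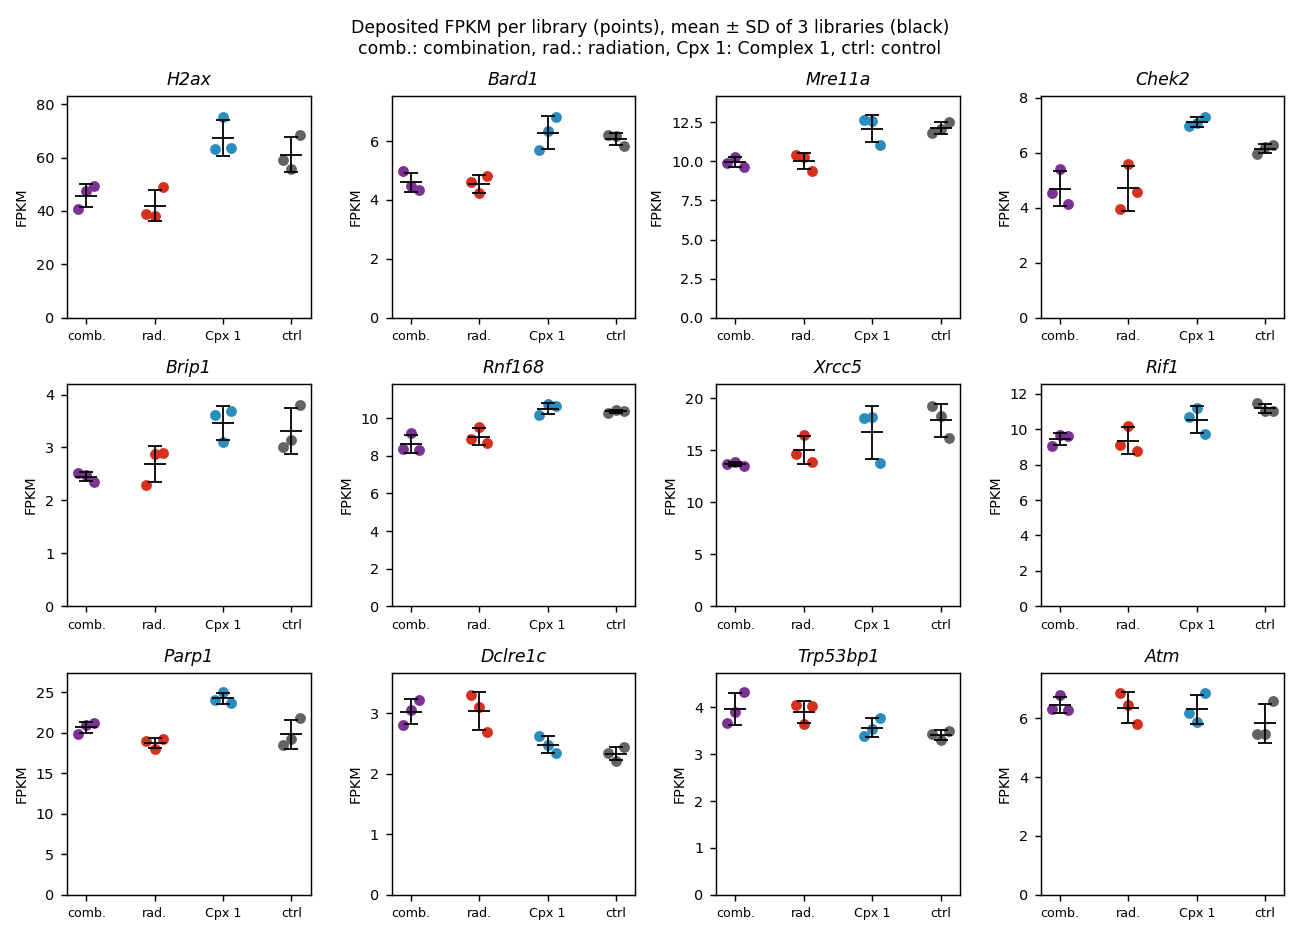
FPKM in each library of 12 members, with the group mean ± SD of 3 libraries in black and axes that start at 0. H2ax, Bard1, Chek2, Brip1, Rnf168 and Mre11a are lower in every combination and radiation library than in any Complex 1 or control library, Dclre1c is higher, and Atm overlaps between groups. The share of all tested genes that separate in this way was not computed.

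Among the 6 break mediators, 4 fell over both levels of Complex 1, beside 13.2% of all tested genes. H2ax (chromosome 9, 44245991 to 44247374, plus strand, mm39) was the most abundant member. Its level was 40.7, 47.5 and 49.2 FPKM in the combination tumours, 38.97, 38.2 and 48.9 FPKM in the radiation tumours, 63.1, 75.1 and 63.6 FPKM in the Complex 1 tumours and 59.2, 55.8 and 68.3 FPKM in the control tumours. The lowest tumour without radiation was above the highest tumour with it. The log2 change of H2ax was -0.57 ± 0.08 (SE, adjusted p = 2.73e-04) over both levels of Complex 1, the lowest p of any member by edgeR. It was -0.57 ± 0.11 (SE, adjusted p = 0.00593) for radiation against control, -0.46 ± 0.11 (SE, adjusted p = 0.00934) for combination against control and -0.57 ± 0.11 (SE, adjusted p = 0.007003) for combination against Complex 1 by edgeR. All 4 calls held in every alternative that was run. Of the 31-base stretches of H2ax, 11.2% also occur elsewhere, and reads from them are uncertain.

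Rnf168 is the ubiquitin ligase that marks H2A-type histones next to a break. It had 8.36, 9.19 and 8.32 FPKM in the combination tumours, 8.89, 9.52 and 8.66 FPKM in the radiation tumours, 10.2, 10.7 and 10.6 FPKM in the Complex 1 tumours and 10.3, 10.4 and 10.4 FPKM in the control tumours, with no overlap between the tumours with and without radiation and an SD of 0.09 FPKM among the control libraries. Rnf168 changed by a log2 value of -0.27 ± 0.05 (SE, adjusted p = 0.00113) over both levels of Complex 1, -0.31 ± 0.06 (SE, adjusted p = 0.00442) for combination against control and -0.31 ± 0.07 (SE, adjusted p = 0.0115) for combination against Complex 1 by edgeR. For radiation against control it was -0.23 ± 0.06 (SE, adjusted p = 0.0352) by edgeR, a call that 9 of 13 alternatives lost, with adjusted p up to 0.115. Rnf8, the ligase that acts before Rnf168, stayed between 0.95 and 1.19 FPKM in all 12 libraries and passed in no comparison.

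Mdc1, which binds phosphorylated H2AX, had 8.96, 9.45 and 10.5 FPKM in the combination tumours, 10.8, 10.2 and 9.17 FPKM in the radiation tumours, 12.1, 11.4 and 11.8 FPKM in the Complex 1 tumours and 11.1, 10.2 and 10.96 FPKM in the control tumours. Combination tumours were all below Complex 1 tumours, at a log2 change of -0.31 ± 0.08 (SE, adjusted p = 0.0228), and the change over both levels was -0.21 ± 0.05 (SE, adjusted p = 0.0103) by edgeR. Rif1 and Trp53bp1 act together to hold back resection. Rif1 had 9.08, 9.66 and 9.61 FPKM in the combination tumours, 9.09, 10.2 and 8.75 FPKM in the radiation tumours, 10.7, 11.2 and 9.72 FPKM in the Complex 1 tumours and 11.5, 11.04 and 11.02 FPKM in the control tumours. It fell by edgeR over both levels of Complex 1 at -0.23 ± 0.05 (SE, adjusted p = 0.00374), in radiation against control at -0.29 ± 0.07 (SE, adjusted p = 0.0171) and in combination against control at -0.29 ± 0.07 (SE, adjusted p = 0.00907), while Complex 1 replicate 3 lay within the range of the radiation tumours. Trp53bp1 leaned the other way, with 3.67, 3.91 and 4.34 FPKM in the combination tumours, 4.06, 3.64 and 4.02 FPKM in the radiation tumours, 3.39, 3.54 and 3.78 FPKM in the Complex 1 tumours and 3.43, 3.3 and 3.5 FPKM in the control tumours. Its log2 change over both levels was 0.15 ± 0.05 (SE, adjusted p = 0.0535) by edgeR, just outside the threshold, and it passed in 8 of 18 alternatives, with adjusted p of 0.0295 to 0.208. The span of Trp53bp1, introns included, overlaps that of Tubgcp4 on the other strand over 5490 bases, and 14.4% of the 31-base stretches of Trp53bp1 also occur elsewhere. How much of such an overlap is exon was not measured. Reads from exons that overlap cannot be told apart, as no source used here gives the strand setting of the counting.

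Of 7 genes of end processing and unwinding, 4 fell over both levels of Complex 1, beside 13.2% of all tested genes. Mre11a (chromosome 9, 14695950 to 14748419, plus strand, mm39) encodes the nuclease of the MRN complex. It had 9.9, 10.3 and 9.65 FPKM in the combination tumours, 10.4, 10.3 and 9.4 FPKM in the radiation tumours, 12.6, 12.6 and 11.1 FPKM in the Complex 1 tumours and 11.8, 12.1 and 12.5 FPKM in the control tumours. Each tumour with radiation was below each tumour without it. The log2 change of Mre11a was -0.30 ± 0.05 (SE, adjusted p = 5.38e-04) over both levels of Complex 1, -0.31 ± 0.07 (SE, adjusted p = 0.0106) for radiation against control, -0.34 ± 0.07 (SE, adjusted p = 0.00319) for combination against control and -0.30 ± 0.07 (SE, adjusted p = 0.01298) for combination against Complex 1 by edgeR. The first 3 calls held in every alternative run. The last was lost without Complex 1 replicate 1, Complex 1 replicate 2 or combination replicate 3, with adjusted p up to 0.0595. Mre11a overlaps Ankrd49 on the other strand over 203 bases, and Ankrd49 had 41.9% as many counts as Mre11a.

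The other 2 subunits of the complex did not pass in any comparison. Rad50, its coiled-coil ATPase, had 9.32, 9.96 and 10.4 FPKM in the combination tumours, 10.8, 10.8 and 10.8 FPKM in the radiation tumours, 11.5, 10.2 and 11.2 FPKM in the Complex 1 tumours and 10.6, 9.94 and 10.6 FPKM in the control tumours, at a log2 change of -0.07 ± 0.05 (SE, adjusted p = 0.313) over both levels of Complex 1 by edgeR. Nbn, the subunit that binds ATM, had 10.6, 10.7 and 11.1 FPKM in the combination tumours, 10.3, 12.02 and 10.5 FPKM in the radiation tumours, 10.1, 10.7 and 11.96 FPKM in the Complex 1 tumours and 10.3, 11.1 and 9.88 FPKM in the control tumours, at 0.00 ± 0.06 (SE, adjusted p = 0.973) by edgeR. The groups overlapped for Nbn. For Rad50, each radiation library lay above each combination and each control library, and the Complex 1 libraries overlapped the other groups. The ratio of Mre11a to Rad50 within a library was 1.01 ± 0.07 in combination, 0.927 ± 0.046 in radiation, 1.11 ± 0.12 in Complex 1 and 1.17 ± 0.05 in control tumours (SD, n = 3 each). In an exact permutation test, two-sided, of 6 libraries with radiation against 6 without, the log2 ratio differed by -0.24 (p = 0.00866, adjusted 0.0260 over 9 pairs). Mre11a to Nbn differed by -0.31 (exact permutation p = 0.00866, adjusted 0.0260) and Rad50 to Nbn by -0.07 (exact permutation p = 0.303, adjusted 0.545). The 9 pairs are known protein partners, chosen with the members' values in view, and a ratio shows unequal change of its 2 genes, not which of them changed. Mre11a had been called and Rad50 and Nbn had not, so that these ratios partly restate those results and are no separate support. The permutation moved libraries without regard to Complex 1.

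**Figure D4:**
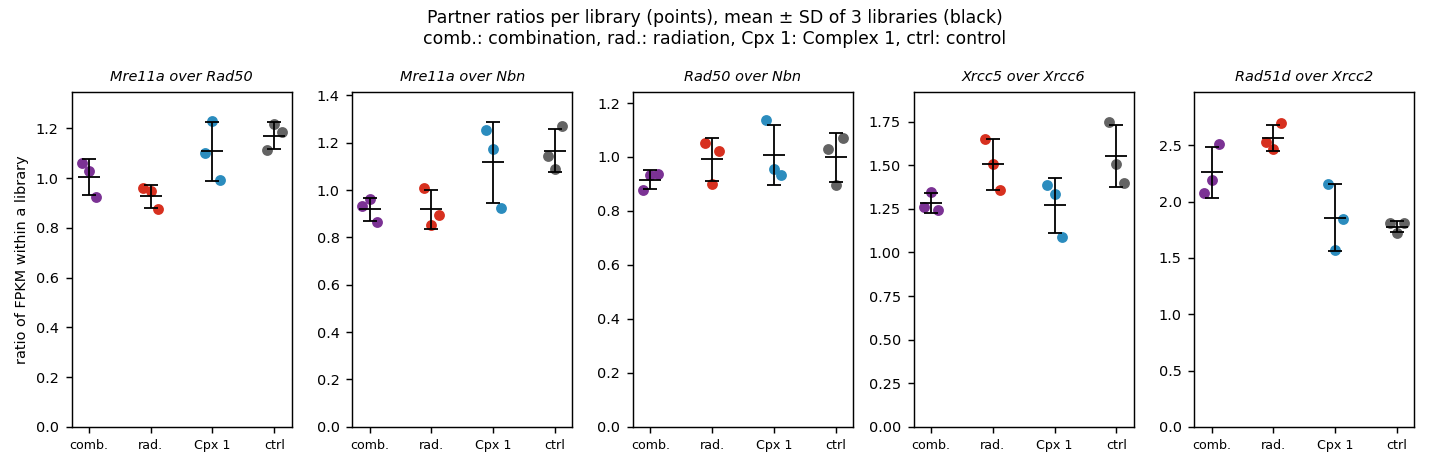
Ratio of FPKM of 5 pairs of partner genes in each library, with the group mean ± SD of 3 libraries. Mre11a is lower relative to Rad50 and to Nbn in the combination and radiation libraries than in most Complex 1 and control libraries, Rad51d is higher relative to Xrcc2, and Rad50 over Nbn overlaps between groups with and without radiation. Xrcc5 over Xrcc6 is lower in every combination library than in any radiation or control library, and lower in every Complex 1 library than in any control library. The gaps of combination to radiation and of Complex 1 to control are narrow and were not tested.

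Rbbp8, the cofactor that starts resection with MRN, had 3.15, 3.34 and 3.33 FPKM in the combination tumours, 3.59, 3.68 and 3.15 FPKM in the radiation tumours, 4.07, 3.96 and 3.76 FPKM in the Complex 1 tumours and 4.08, 4.11 and 3.75 FPKM in the control tumours. No tumour with radiation reached the lowest tumour without it. The log2 change of Rbbp8 was -0.26 ± 0.05 (SE, adjusted p = 0.00323) over both levels of Complex 1, -0.33 ± 0.07 (SE, adjusted p = 0.00671) for combination against control and -0.28 ± 0.07 (SE, adjusted p = 0.0285) for combination against Complex 1 by edgeR. Blm, a RecQ helicase that unwinds resected ends, had 2.78, 2.76 and 2.48 FPKM in the combination tumours, 2.78, 3.27 and 2.78 FPKM in the radiation tumours, 3.45, 3.59 and 3.44 FPKM in the Complex 1 tumours and 3.31, 3.51 and 3.1 FPKM in the control tumours. It fell at -0.30 ± 0.06 (SE, adjusted p = 0.00328) over both levels, -0.36 ± 0.09 (SE, adjusted p = 0.0113) for combination against control and -0.41 ± 0.09 (SE, adjusted p = 0.0121) for combination against Complex 1 by edgeR, with radiation replicate 2 above the lowest control library. Wrn, a second helicase of this family, ranged over 4.54 to 6.40 FPKM without a call. Exo1, the nuclease of long-range resection, had 1.96, 2.37 and 2.07 FPKM in the combination tumours, 1.43, 2.04 and 1.75 FPKM in the radiation tumours, 2.42, 2.88 and 2.92 FPKM in the Complex 1 tumours and 2.0, 2.24 and 2.33 FPKM in the control tumours. It passed over both levels of Complex 1 at -0.37 ± 0.09 (SE, adjusted p = 0.00978) by edgeR, and the combination tumours overlapped the control tumours.

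In classical end joining 2 of 7 members fell and 1 rose over both levels of Complex 1, beside 13.2% lower and 13.3% higher among all tested genes. Xrcc5 and Xrcc6 encode the larger and the smaller subunit of Ku, the ring that caps broken ends. Xrcc5 had 13.7, 13.9 and 13.5 FPKM in the combination tumours, 14.7, 16.5 and 13.9 FPKM in the radiation tumours, 18.1, 18.3 and 13.8 FPKM in the Complex 1 tumours and 19.2, 18.3 and 16.1 FPKM in the control tumours. The combination tumours were within 13.5 to 13.9 FPKM, below all control tumours, and Complex 1 replicate 3 was as low as they were. The log2 change of Xrcc5 was -0.44 ± 0.11 (SE, adjusted p = 0.0113) for combination against control and -0.30 ± 0.08 (SE, adjusted p = 0.0117) over both levels of Complex 1 by edgeR. Xrcc6 had 10.9, 10.3 and 10.8 FPKM in the combination tumours, 8.89, 10.9 and 10.2 FPKM in the radiation tumours, 13.1, 13.7 and 12.6 FPKM in the Complex 1 tumours and 11.02, 12.1 and 11.6 FPKM in the control tumours. The highest tumour with radiation was below the lowest without it. For Xrcc6 it was -0.28 ± 0.05 (SE, adjusted p = 0.00249) over both levels and -0.32 ± 0.08 (SE, adjusted p = 0.0196) for combination against Complex 1 by edgeR. The ratio of Xrcc5 to Xrcc6 was 1.28 ± 0.06 in combination, 1.505 ± 0.146 in radiation, 1.27 ± 0.16 in Complex 1 and 1.55 ± 0.18 in control tumours (SD, n = 3 each), and the exact permutation test of tumours with against without radiation gave p = 0.916. All combination libraries had a lower ratio than all radiation libraries, and all Complex 1 libraries a lower one than all control libraries, a separation seen in the values and not tested. The gaps were narrow. Combination replicate 2 had 1.347 against 1.358 in radiation replicate 3, and Complex 1 replicate 1 had 1.387 against 1.397 in control replicate 3. How often other pairs or genes separate so is not given here. Xrcc6 overlaps Desi1 on the other strand, which had 116% as many counts.

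Dclre1c (chromosome 2, 3425168 to 3465167, plus strand, mm39), the nuclease Artemis that opens hairpins and trims ends, was the 1 member that rose. It had 2.81, 3.05 and 3.23 FPKM in the combination tumours, 3.31, 3.1 and 2.7 FPKM in the radiation tumours, 2.62, 2.48 and 2.35 FPKM in the Complex 1 tumours and 2.34, 2.22 and 2.45 FPKM in the control tumours. All tumours with radiation were above all tumours without it. The log2 change of Dclre1c was 0.31 ± 0.07 (SE, adjusted p = 0.00397) over both levels of Complex 1, 0.35 ± 0.09 (SE, adjusted p = 0.0263) for radiation against control and 0.33 ± 0.09 (SE, adjusted p = 0.0222) for combination against control by edgeR. The call over both levels held in 18 of 18 alternatives. The call for radiation against control was lost in 7 of 13, among them no filter and the fits without control replicate 1, control replicate 2, radiation replicate 1 or radiation replicate 2, with adjusted p up to 0.145, and that for combination against control in 6 of 13, with adjusted p up to 0.0920. The span of Dclre1c, introns included, overlaps that of Suv39h2 on the other strand by 8316 bases, and Suv39h2 had 61.95% as many counts. How much of this overlap is exon was not measured. Suv39h2 had 2.98, 3.54 and 3.44 FPKM in the combination tumours, 2.67, 3.39 and 3.29 FPKM in the radiation tumours, 4.19, 3.91 and 4.04 FPKM in the Complex 1 tumours and 3.82, 3.61 and 3.94 FPKM in the control tumours, and its log2 change over both levels was -0.31 ± 0.08 (SE, adjusted p = 0.00993) by edgeR. It was 1 of 5 overlapping neighbours tested, with log2 changes of -0.31 to 0.28. Of the 5, 1 was called lower, beside 13.2% of all tested genes. The part of neighbour reads in the values of Dclre1c was not tested.

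Prkdc, the catalytic subunit of DNA-PK, stayed within 2.04 to 2.38 FPKM in the 12 libraries. Its log2 change over both levels of Complex 1 was -0.05 ± 0.05 (SE, adjusted p = 0.5201) by edgeR. The ligation factors Xrcc4, Lig4 and Nhej1 passed in no comparison, with ranges of 3.54 to 4.71 FPKM, 1.23 to 2.10 FPKM and 1.37 to 2.78 FPKM. Nhej1 was the least precise member, with an SE of 0.27 on its log2 change in radiation against control. Xrcc4 overlaps Tmem167 on the other strand, which had 487% as many counts.

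In homologous recombination 4 of 10 members fell over both levels of Complex 1, beside 13.2% of all tested genes. Bard1 (chromosome 1, 71066657 to 71142305, minus strand, mm39) encodes one subunit of a ubiquitin ligase that acts on chromatin at breaks. It had 4.97, 4.48 and 4.35 FPKM in the combination tumours, 4.6, 4.22 and 4.81 FPKM in the radiation tumours, 5.7, 6.33 and 6.83 FPKM in the Complex 1 tumours and 6.22, 6.16 and 5.82 FPKM in the control tumours. The ranges of tumours with and without radiation did not meet. Its log2 change was -0.46 ± 0.06 (SE, adjusted p = 3.01e-04) over both levels of Complex 1, -0.44 ± 0.09 (SE, adjusted p = 0.00728) for radiation against control, -0.45 ± 0.09 (SE, adjusted p = 0.00357) for combination against control and -0.47 ± 0.09 (SE, adjusted p = 0.00678) for combination against Complex 1 by edgeR. These 4 calls held in every alternative run. Brip1, a helicase that removes DNA structures during recombination and crosslink repair, had 2.52, 2.48 and 2.35 FPKM in the combination tumours, 2.29, 2.87 and 2.89 FPKM in the radiation tumours, 3.61, 3.1 and 3.69 FPKM in the Complex 1 tumours and 3.0, 3.14 and 3.81 FPKM in the control tumours. The groups with radiation lay wholly below those without. Its log2 change was -0.43 ± 0.08 (SE, adjusted p = 0.00259) over both levels, -0.48 ± 0.12 (SE, adjusted p = 0.0115) for combination against control and -0.52 ± 0.12 (SE, adjusted p = 0.0159) for combination against Complex 1 by edgeR, and -0.33 ± 0.12 (SE, adjusted p = 0.0825) for radiation against control.

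Palb2 and Xrcc2 passed by edgeR over both levels of Complex 1 alone. Palb2, a scaffold that gathers recombination proteins, had 1.22, 1.34 and 1.32 FPKM in the combination tumours, 1.27, 1.27 and 1.01 FPKM in the radiation tumours, 1.62, 1.74 and 1.67 FPKM in the Complex 1 tumours and 1.75, 1.2 and 1.63 FPKM in the control tumours, at -0.39 ± 0.10 (SE, adjusted p = 0.0137), and control replicate 2 was as low as the tumours with radiation. Xrcc2, a recombinase paralogue, had 1.72, 1.95 and 1.7 FPKM in the combination tumours, 1.76, 1.61 and 1.77 FPKM in the radiation tumours, 1.82, 2.65 and 1.96 FPKM in the Complex 1 tumours and 1.98, 2.28 and 2.2 FPKM in the control tumours, at -0.32 ± 0.10 (SE, adjusted p = 0.0336). The Xrcc2 call was lost in 10 of 18 alternatives, 8 of them fits without 1 library, with adjusted p up to 0.102. The remaining recombination members, Rad51b, Rad51c, Rad51d, Xrcc3, Rad54l and Rad52, passed in no comparison. Rad52, the annealing protein, had 4.27, 4.06 and 4.33 FPKM in the combination tumours, 4.51, 4.42 and 4.51 FPKM in the radiation tumours, 4.67, 3.89 and 3.94 FPKM in the Complex 1 tumours and 4.1, 4.34 and 3.96 FPKM in the control tumours, at 0.04 ± 0.06 (SE, adjusted p = 0.647) over both levels by edgeR. Rad51d forms a complex with Xrcc2, and their ratio was 2.26 ± 0.23 in combination, 2.57 ± 0.12 in radiation, 1.86 ± 0.29 in Complex 1 and 1.78 ± 0.05 in control tumours (SD, n = 3 each). The log2 ratio differed by 0.41 between tumours with and without radiation (exact permutation p = 0.00433, adjusted 0.0260 over 9 pairs, with 0.00216 the smallest p possible). This pair too was chosen with the members' values in view. Xrcc2 had been called and Rad51d had not, so that the ratio partly restates those results and is no separate support. Xrcc3 overlaps Klc1 and Rad54l overlaps Lrrc41 on the other strand, and both neighbours had more counts than the member.

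Of 4 members of alternative end joining and single-strand break repair, 2 fell over both levels of Complex 1, beside 13.2% of all tested genes. Polq, the polymerase of alternative end joining, had 2.05, 1.89 and 1.96 FPKM in the combination tumours, 1.88, 2.23 and 1.98 FPKM in the radiation tumours, 2.44, 2.23 and 2.64 FPKM in the Complex 1 tumours and 2.21, 2.34 and 2.61 FPKM in the control tumours. It fell at -0.29 ± 0.07 (SE, adjusted p = 0.00813) over both levels of Complex 1 and -0.33 ± 0.10 (SE, adjusted p = 0.0326) for combination against control by edgeR. The combination tumours were all below the control tumours, and the highest radiation tumour equalled the lowest Complex 1 tumour and exceeded the lowest control tumour. Parp1, the sensor of strand breaks that makes poly(ADP-ribose), had 19.9, 20.9 and 21.2 FPKM in the combination tumours, 18.9, 18.04 and 19.2 FPKM in the radiation tumours, 24.1, 25.1 and 23.7 FPKM in the Complex 1 tumours and 18.5, 19.2 and 21.9 FPKM in the control tumours. Complex 1 tumours were the highest group, and combination and control tumours overlapped. Its log2 change was -0.25 ± 0.07 (SE, adjusted p = 0.0292) for combination against Complex 1 and -0.18 ± 0.05 (SE, adjusted p = 0.0117) over both levels by edgeR, and 0.01 ± 0.07 (SE, adjusted p = 0.93) for combination against control.

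Parp1 also had the lowest p of the members in Complex 1 against control tumours, at a log2 change of 0.26 ± 0.07 (SE, adjusted p = 0.09296) by edgeR. It was the 1 member that DESeq2 called there, at a log2 change of 0.26 (DESeq2 adjusted p = 0.0309), and edgeR called it without control replicate 3, at 0.33 (adjusted p = 0.0408). Lig3, the ligase of short-patch repair, passed by edgeR in combination against control at -0.20 ± 0.06 (SE, adjusted p = 0.0472), with 4.42, 4.29 and 4.67 FPKM in the combination tumours, 4.73, 5.0 and 4.73 FPKM in the radiation tumours, 4.8, 4.85 and 4.7 FPKM in the Complex 1 tumours and 5.1, 4.93 and 4.79 FPKM in the control tumours. That call was lost in 12 of 13 alternatives, with adjusted p up to 0.202. Of the 31-base stretches of Lig3, 24.3% also occur elsewhere, the highest share of any member. The span of Lig3 overlaps that of Rffl on the other strand, which had 36.1% as many counts. Xrcc1, the scaffold that holds Lig3, ranged over 9.54 to 11.5 FPKM and passed in no comparison.

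Several pairwise calls ended when 1 library was left out, and the highest adjusted p over all alternatives by edgeR or DESeq2 is given for each. In combination against control these were Chek2 (control replicate 2 or 3, combination replicate 1 or 3, adjusted p up to 0.107), Topbp1 (the same 4 libraries, 0.1004), Blm (control replicate 2 or combination replicate 3, 0.0546) and Polq (control replicate 2 or 3 or any combination library, 0.108). In combination against Complex 1, Chek1 (0.146) was lost without any library of the 2 groups except combination replicate 2. There, Parp1 (0.109), Rbbp8 (0.106) and Xrcc6 (0.0812) were lost without any of these libraries except Complex 1 replicate 3. Mdc1 (0.0987) was lost without Complex 1 replicate 1 or combination replicate 1 or 2, Topbp1 (0.0949) without Complex 1 replicate 2 or combination replicate 1 or 3, Brip1 (0.0628) without Complex 1 replicate 1 or combination replicate 3, Blm (0.0571) without Complex 1 replicate 2 or combination replicate 3, and Rnf168 (0.0524) without combination replicate 1 or 3. In radiation against control, Rif1 (0.0746) was lost without control replicate 1 or radiation replicate 1 or 3.

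The effect of radiation was next set side by side with and without Complex 1, in combination against Complex 1 and in radiation against control, which share no library. Of the 40 members, 33 changed in the same direction in both (82.5%), 28 of them lower and 5 higher, beside 74.8% of all tested genes. Members called in both comparisons were 5, which is 5 of the 13 called in combination against Complex 1 and 5 of the 7 called in radiation against control (38.5% and 71.4%). Among all tested genes 850 were called in both, which is 62.3% of the 1364 called in combination against Complex 1 and 46.9% of the 1811 called in radiation against control. They were H2ax, Bard1, Chek2, Rnf168 and Mre11a. Across the 40 members the 2 sets of log2 changes had a Pearson r of 0.83 and a Spearman rho of 0.79, and across all tested genes 0.48 and 0.62, as a description over genes that share libraries and scaling and are not independent.

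**Figure D5:**
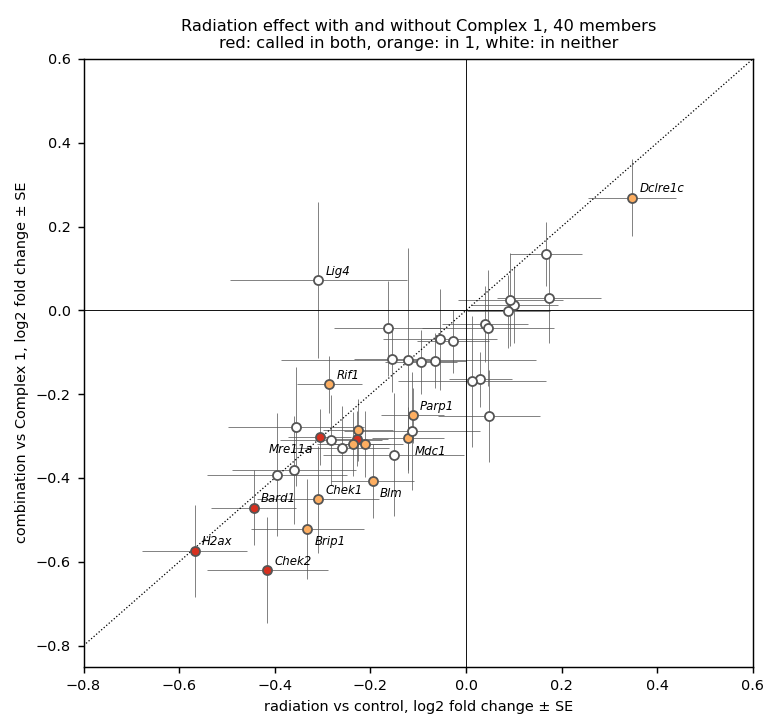
Log2 fold change ± SE of the 40 members in combination against Complex 1 (vertical) and in radiation against control (horizontal), with the line of equal change dotted. Red points (called in both, 5 members) lie at the lower left with H2ax near the line, and Dclre1c lies alone at the upper right.

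The difference between these effects, the interaction of Complex 1 and radiation, was called for 0 members by edgeR, with 0 at an unadjusted p under 0.05 and 0 by DESeq2. It was called for 0% of all tested genes, with 4.39% at an unadjusted p under 0.05. The interaction log2 values of the members ran between -0.30 (Xrcc4) and 0.38 (Lig4). Their median was -0.07, beside -0.0103 over all tested genes, and 32 of 40 were negative. The share of negative values over all tested genes is not given here. Members share libraries and scaling, so that the count of signs is a description and not a test. For H2ax the interaction was -0.01 ± 0.15 (SE) and for Chek2 -0.20 ± 0.18 (SE). A p above the threshold does not show that the 2 effects were equal. For combination against radiation tumours the members' median log2 change was -0.02, with a range of -0.27 (Xrcc4) to 0.27 (Exo1).

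Another 56 genes that work in the same pathway were looked at beside the members, and all 56 were tested. Over both levels of Complex 1, 20 fell and 3 rose by edgeR, beside 13.2% lower and 13.3% higher among all tested genes. Fignl1, an ATPase of recombination, had 4.15, 5.13 and 4.45 FPKM in the combination tumours, 4.16, 4.46 and 4.25 FPKM in the radiation tumours, 6.3, 6.52 and 6.67 FPKM in the Complex 1 tumours and 6.06, 5.83 and 5.88 FPKM in the control tumours, at a log2 change of -0.51 ± 0.06 (SE, adjusted p = 1.01e-04) by edgeR. Gen1, the Holliday junction resolvase, was at -0.45 ± 0.06 (SE, adjusted p = 2.09e-04), Rad9a, a subunit of the checkpoint clamp, at -0.38 ± 0.06 (SE, adjusted p = 3.99e-04), and Rpa3, the smallest subunit of the single-strand binding complex, at -0.48 ± 0.07 (SE, adjusted p = 4.44e-04) by edgeR. Parp3, a poly(ADP-ribose) polymerase family enzyme, rose, with 18.8, 20.6 and 24.1 FPKM in the combination tumours, 22.3, 21.4 and 21.3 FPKM in the radiation tumours, 13.7, 14.4 and 17.01 FPKM in the Complex 1 tumours and 12.5, 13.3 and 13.5 FPKM in the control tumours and a log2 change of 0.59 ± 0.07 (SE, adjusted p = 1.04e-04) by edgeR. Rnf169, a ubiquitin reader at breaks, rose as well, with 6.06, 5.65 and 4.75 FPKM in the combination tumours, 4.96, 4.77 and 5.3 FPKM in the radiation tumours, 3.63, 3.6 and 3.45 FPKM in the Complex 1 tumours and 3.81, 3.35 and 3.33 FPKM in the control tumours and 0.55 ± 0.07 (SE, adjusted p = 1.61e-04) by edgeR. Parp3 and Rnf169 were higher in every tumour with radiation than in any tumour without it.

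Of the 56 genes, 14 fell and 2 rose in combination against control, 11 fell and 2 rose in radiation against control, and 13 fell and 2 rose in combination against Complex 1. Among all tested genes, in the same order, 10%, 5.86% and 5.25% fell and 11.9%, 7.39% and 4.73% rose. By edgeR 0 passed in Complex 1 against control, with 3 at an unadjusted p under 0.05, and 0 in combination against radiation, with 6 at an unadjusted p under 0.05. Of all tested genes 12.5% and 10.3% had an unadjusted p under 0.05 in these 2 comparisons, and 0.812% and 0.651% were called. The 2 that rose in the 3 comparisons with calls were Parp3 and Rnf169. In combination against control, Smc6, a subunit of a chromosome maintenance complex, was at -0.38 ± 0.06 (SE, adjusted p = 7.55e-04) by edgeR. The median log2 change of the 56 genes over both levels of Complex 1 was -0.14, beside -0.19 for the members and -0.34 for the proliferation genes.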

How the data were processed

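RNA-seq was analysed for 12 CT26 tumour libraries in 4 groups of 3, grouped by their titles. The submitters' processing notes name HTSeq 2.0.1, STAR 2.5.3a, DESeq2 and build mm39 with no role for each, and no source used here gives the strand setting or filters. The deposited table holds the authors' raw counts per gene and, beside them, the authors' FPKM per exonic length and library total. Recomputing FPKM from the counts gave the deposited values within 0.005.

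Counts were scaled by TMM and tested with edgeR 4.0.16 (quasi-likelihood, R 4.3.3) in 1 model with a mean per group, over 13668 genes at 1 FPKM or more in at least 3 libraries, with Benjamini-Hochberg adjustment over all of them and a threshold of 0.05. SE is the log2 change divided by the square root of F. There were 7 comparisons. Partner ratios were tested by exact permutation (scipy 1.17.1). Alternatives were median-ratio scaling, library totals alone, no filter, DESeq2 1.42.0, the groups compared alone, a replicate block, and each library left out. Leaving out the 3 libraries that stood apart was added after seeing the data.

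The members and gene lists were chosen with earlier results of these data known. Changes are given for members that passed, for the 14 lowest p where more did, and for Atm, Atr, Trp53bp1, Prkdc and Rad52. Exo1, Palb2, Xrcc2, Lig3, Rad50, Nbn and Suv39h2 were named after their values were seen. On simulated counts for radiation against control (13668 genes), 60% of 100 genes changed 1.5-fold and 6% of 100 changed 1.25-fold were called, with 3 calls among 13468 unchanged genes. Shared 31-base sequences come from GENCODE M21 transcripts. The shared part was 10% or more in 6 members, Atrip, H2ax, Lig3, Rad54l, Rnf8 and Trp53bp1. Overlaps between genes are those of their whole spans, introns included. Replicates of a group differed by more than sampling noise in every pair.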

Additional observations from a re-analysis of the deposited data

How the results depend on the processing

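No sign changed in 905 alternatives for 60 member results named in a comparison: 782 stayed on the same side of the threshold, 115 lost a call and 8 gained one. The 19 members that fell and the 1 that rose over both levels of Complex 1 kept their calls in every alternative, except Xrcc2. In radiation against control the count of members called was 7, and 4 with the groups compared alone, where fewer libraries estimate the spread. Leaving out 1 library gave 3 to 9 calls there, 9 to 12 for combination against control, 4 to 13 for combination against Complex 1, 0 to 1 for Complex 1 against control, 0 for combination against radiation, 19 to 21 over both levels of Complex 1 and 0 for the interaction. For Complex 1 against control DESeq2 called 1. The share of all tested genes called in each of these alternatives is not given here, so that the moves of the counts cannot be set against it. The members' median log2 change in combination against control was -0.14, and -0.10 with library totals alone. In radiation against control it was -0.15, and -0.20 without the 3 libraries that stood apart, an alternative chosen after seeing the data. Leaving out 1 library gave medians of -0.19 to -0.13 in radiation against control, -0.18 to -0.15 in combination against control, -0.27 to -0.22 in combination against Complex 1, -0.21 to -0.17 over both levels of Complex 1, 0.02 to 0.05 in Complex 1 against control, -0.06 to -0.01 in combination against radiation and -0.09 to -0.06 for the interaction. With 15.6 to 19.1 M counts and 3 libraries a group, 6% of 100 genes simulated with a 1.25-fold change were called in radiation against control. The simulation left 13468 of 13668 genes unchanged, whereas 13.2% of all tested genes were called in the tumours. The threshold set by the adjustment differs between the 2, so that the 6% does not carry over to the members. Some members were called there at changes smaller than 1.25-fold.

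Replicate numbers are shared by the groups, so a fit with the replicate number as a block was also run. It called 10 members in radiation against control, 15 in combination against control, 15 in combination against Complex 1, 22 over both levels and 0 in the other 3 comparisons. The share of all tested genes called with the block is not given here either. Same-numbered libraries did not deviate together: of 18 pairs 4 had a correlation over 0.1, with a range of -0.20 to 0.16, and 4 of 12 libraries correlated best with their own number in another group. The labels do not say that the numbers pair mice.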
